A study of Mus musculus with 3 samples.

Results

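The genes described here encode the platelet-derived growth factors (PDGFs), KIT ligand and their receptors, in the developing ureter of wild-type FVB/N mouse embryos. The members are 5 ligand genes (Pdgfa, Pdgfb, Pdgfc, Pdgfd and Kitl) and 3 receptor genes (Pdgfra, Pdgfrb and Kit). They were listed by symbol, and every probe set annotated with exactly 1 of these symbols was taken, which gave 20 of 34958 probe sets with 1 symbol and 8 of 18194 genes. The level of a gene is that of its brightest probe set by mean log2(signal + 1), and the remaining probe sets are given beside it.

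The study holds 1 group of 3 ureter samples at embryonic day 15 (Theiler stage 23), named replicates 3, 8 and 9 in the labels, with no treatment, mutant or second stage. The dissected tissue reached from renal pelvis to bladder insertion, the sex of the embryos was unknown, and samples were not pooled. Each RNA went through 2 rounds of amplification and was read on its own 1-colour array, the Affymetrix Mouse Genome 430 2.0. Separate litters or embryos are not stated for the replicates, whose spread may then be partly technical, and with 1 group no difference between conditions could be tested.

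PDGFs are secreted dimers that bind receptor tyrosine kinases on mesenchymal cells. PDGF-A and PDGF-C act mainly through PDGFRA, PDGF-B through both receptors and PDGF-D mainly through PDGFRB, and the C and D forms must be cut by proteases before they bind. KIT is a related receptor of the same class, its ligand exists in a membrane-bound and a soluble form, and in the adult urinary tract KIT and PDGFRA mark separate interstitial cells of the muscle wall.

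A gene was called above background when its signal exceeded, on each of the 3 arrays, the 95th percentile of 49 genes typical of organs that were not dissected (retina, lens, testis, pituitary and others). This background lay at a signal of 284, 345 and 461 in replicates 3, 8 and 9. Of the 8 members, 7 were above background, against 55.5% of all named genes and 73.6% of the genes with 2 or more probe sets. Every member had between 2 and 4 probe sets, and Pdgfb was the member not above background. Of the 20 probe sets, 12 were above background on all 3 arrays (44.0% of all probe sets with 1 symbol), 4 on some arrays and 4 on none. A probe set can be bright or dim whatever the amount of its transcript, so levels are not ranked between genes.

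Most markers of the labelled tissue gave signal. Urothelial genes were above background for 10 of 12, smooth muscle genes for 6 of 8 and mesenchymal and fibroblast genes for 10 of 10, with the uroplakin gene Upk2 below background on every array. Upk3a and the smooth muscle gene Cnn1 exceeded background in replicate 8 alone, and Myocd in replicates 8 and 9. The share over all named genes was 55.5%, and 73.6% over those with 2 or more probe sets, so the smooth muscle count lies near the general share. With the 99th percentile of the reference genes in place of the 95th, 3 of the 8 smooth muscle genes were above it. Liver genes (5 of 5), erythroid genes (5 of 5) and skeletal muscle genes (6 of 7) were above background too, and kidney genes for 3 of 9. The ratio of 3′ to 5′ control signal for Actb, which falls as labelled RNA reaches farther from the 3′ end, was 7.45, 6.50 and 4.005 in replicates 3, 8 and 9. For Gapdh the ratio was 18.9, 15.1 and 16.4, and for Tfrc 7.67, 9.57 and 7.21, so the arrays did not keep 1 order across the controls.

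**Figure D1:**
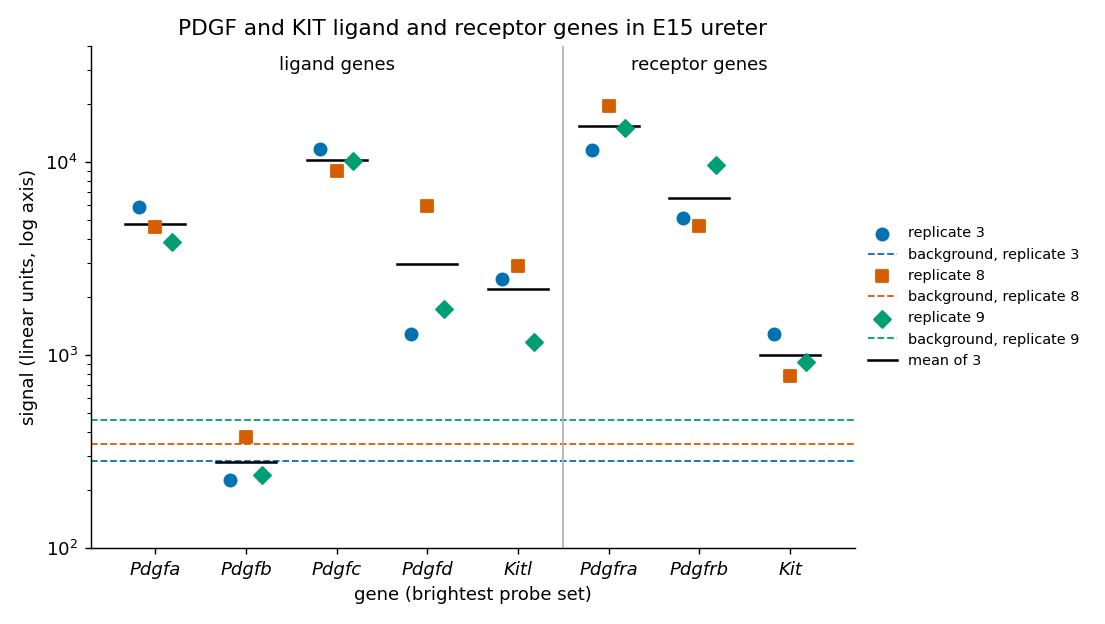
Signal of the brightest probe set of each gene (vertical log axis, linear signal units) for the 5 ligand and 3 receptor genes, with 1 point per ureter sample, a black bar for the mean of 3, and dashed lines for the background of each array. All genes but Pdgfb lie above the dashed lines in every sample, and Pdgfd and Pdgfrb show 1 sample well apart from the rest.

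Among the ligand genes, Pdgfa, whose protein is made by many epithelia, had signals of 5880, 4632 and 3854 in replicates 3, 8 and 9, a mean of 4789 ± 1022 (SD, n = 3, here and wherever a mean ± SD follows). Its second probe set gave 578, 758 and 965 and was above background in each sample. The 2 probe sets thus ordered the samples in opposite ways, with replicate 3 highest by the first and lowest by the second. The log2 range over the samples, after each array's median deviation was taken off (the centred range), was 0.02 when the 2 were averaged and 0.57 for the brighter one. The sample order of Pdgfa thus differed between its probe sets.

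Pdgfc gave the closest values among the members. Its brightest probe set had signals of 11659, 9001 and 10161 in replicates 3, 8 and 9 (10274 ± 1333), and its second gave 11294, 10340 and 7845 (9826 ± 1781). The centred range of the first was 0.39, and 31.8% of the genes above background had a smaller one. The brighter probe set ends in _s_at, a suffix for probes that may match transcripts of more than 1 gene, but the other probe set alone also left Pdgfc above background. Both probe sets were at least 17.0 times the background of their array in every sample.

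Pdgfb, which endothelial cells use to recruit pericytes, had signals of 226, 378 and 240 in replicates 3, 8 and 9 (281 ± 84). Replicate 8 alone exceeded its background, by a factor of 1.10. The second probe set gave 98.5, 89.9 and 155, below background in each sample. Endothelial marker genes were above background for 8 of 10, among them the receptor gene Tek (2929 ± 1308), the cadherin gene Cdh5 (2275 ± 700), Sox18 (2180 ± 609) and the claudin gene Cldn5 (1967 ± 213), while Tie1 was below background in every sample (189 ± 86). The share was 55.5% over all named genes and 73.6% over those with 2 or more probe sets. With the 99th percentile of the reference genes as background, 5 of these 10 endothelial genes were above it. Pecam1 (320, 228 and 161 in replicates 3, 8 and 9) exceeded background in replicate 3 alone, as Pdgfb did in replicate 8 alone. Pdgfb was thus near background, and the endothelial count of 8 of 10 lies near the share of genes with 2 or more probe sets.

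Pdgfd differed most between the samples of all 8 members. Its brightest probe set had signals of 1293, 5899 and 1730 in replicates 3, 8 and 9 (2974 ± 2543), so that the highest sample was 4.56 times the lowest. The centred range of 2.17 was wider than that of 99.1% of the genes above background, and without replicate 8 it was 0.45. A second probe set followed the same order at a lower level, with 172, 378 and 180, and was above background in replicate 8 alone, by a factor of 1.10. The third gave 113, 120 and 100 and was below background throughout.

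The genes nearest to Pdgfd in their differences between the 3 samples were Cldn7, a tight junction gene of epithelia, Foxq1, a forkhead gene, and Tbc1d4, with Euclidean distances of 0.03, 0.23 and 0.23 (log2) over 3 samples. Cldn7 had signals of 1032, 4870 and 1398 in replicates 3, 8 and 9, and Foxq1 1329, 4825 and 1595. These 3 genes were the whole set within a distance of 0.25 among 10102 genes compared. Replicate 8 also had the highest summed signal of the 12 urothelial markers (63491, against 49269 in replicate 3 and 44205 in replicate 9). In that list the adhesion gene Epcam (2586, 8308 and 2414 in replicates 3, 8 and 9) and Foxa1 (3650, 7188 and 5066) were highest in replicate 8, whereas Krt19 (6275, 5208 and 3474) was highest in replicate 3. Tbx18, a T-box gene of the ureteric mesenchyme, had 7828, 20079 and 7442, and the mesenchymal genes Lum (18008, 29913 and 17109) and Tcf21 (2269, 3622 and 2182) were highest in replicate 8 as well. The summed signal of the 10 mesenchymal and fibroblast genes lay between 174667 and 182267, with the collagen genes Col3a1 (59549, 46113 and 60603) and Col1a2 (38366, 28308 and 45723) lowest in replicate 8. These mesenchymal genes and Epcam were singled out after their values were seen. Whether the tissue make-up of replicate 8 had a part in the Pdgfd difference was not tested, and in a bulk sample more cells of a type and more RNA per cell cannot be told apart.

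Kitl, the gene of KIT ligand, also known as stem cell factor, had signals of 2485, 2913 and 1176 in replicates 3, 8 and 9 with its brightest probe set (2191 ± 905). Its centred range was 1.26, wider than that of 92.5% of the genes above background. The next probe sets gave 850, 788 and 1016, and 434, 613 and 952, both above background in each sample, and the last gave 117, 127 and 196, below background in each. Replicate 9 was thus the lowest by the brightest probe set and the highest by the other 3. Averaged over the 4 probe sets the centred range was 0.22, and without replicate 9 that of the brightest probe set was 0.21. The genes nearest to it were Nfya, a subunit gene of a transcription factor that binds CCAAT letters, Gramd1c and Prelid3b (distances 0.02 to 0.04), but 122 genes lay within 0.25.

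**Figure D2:**
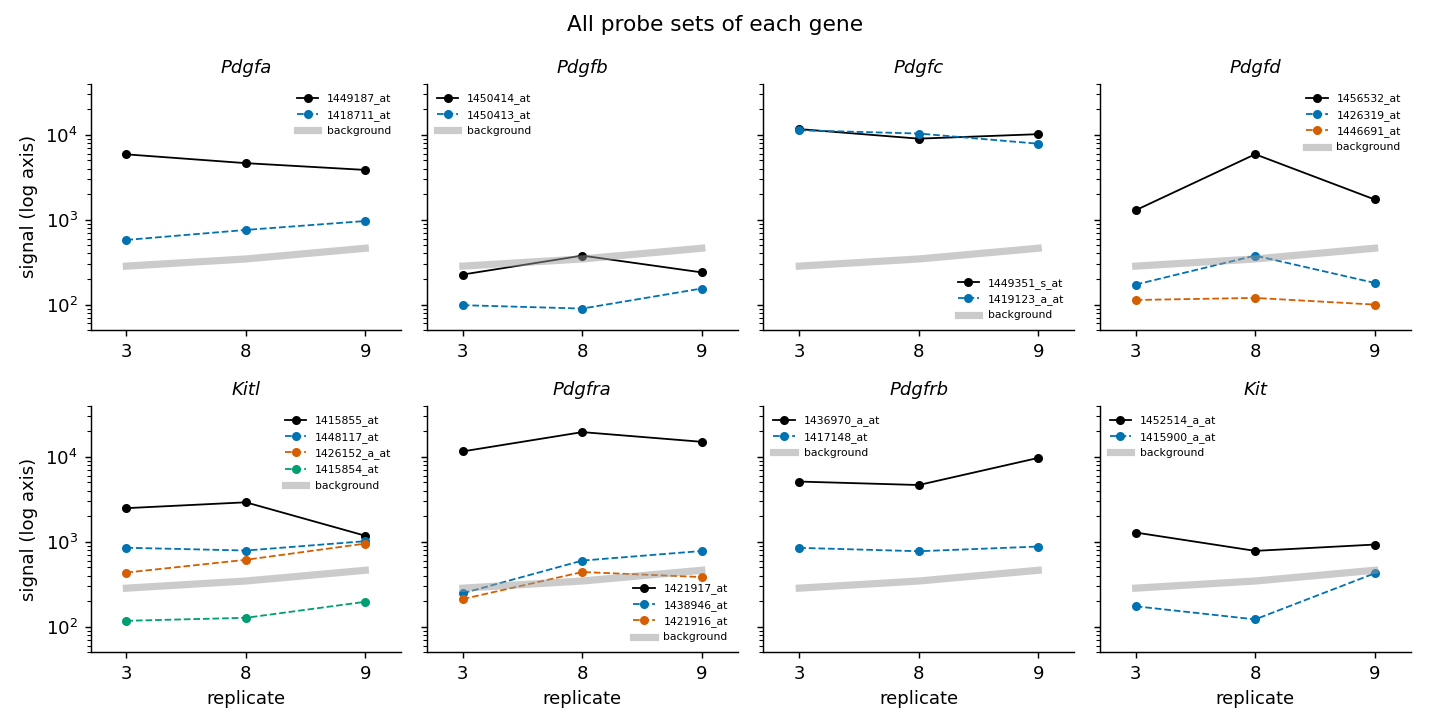
Signal (log axis) of all 20 probe sets of the 8 genes in replicates 3, 8 and 9, with 1 panel per gene, a solid black line for the probe set used as the gene level, dashed lines for the others and a grey band for the background of each array. Lines join the values of 1 probe set and imply no order of the samples. The probe sets of Pdgfa and of Kitl run in opposite directions, and those of Pdgfra lie far apart in level.

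Among the receptor genes, Pdgfra, whose protein marks mesenchyme and fibroblast-like cells, had signals of 11582, 19534 and 15015 in replicates 3, 8 and 9 (15377 ± 3988). These were 40.8, 56.6 and 32.6 times the background of their arrays. Its centred range of 0.74 was wider than that of 69.6% of the genes above background. The other probe sets gave 248, 600 and 778, above background in replicates 8 and 9, and 211, 440 and 384, above background in replicate 8. The lowest value was that of replicate 3 with each of the 3 probe sets, while the highest was replicate 8 with 2 of them and replicate 9 with the third. The call of Pdgfra rests on 1 of its 3 probe sets. A looser condition, at least 1 probe set short of background on some array, held for 75.1% of the 6632 called genes that have more than 1. How many of those calls rest on a single probe set was not counted.

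Pdgfrb, whose protein marks pericytes and other mural cells, had signals of 5111, 4653 and 9705 in replicates 3, 8 and 9 (6490 ± 2794). Its second probe set gave 848, 773 and 878 (833 ± 54). Both were above background in each sample and put replicate 9 highest and replicate 8 lowest, but the highest was 2.09 times the lowest by the first and 1.14 times by the second. The centred range of the brighter probe set was 1.11, wider than that of 89.0% of the genes above background, and without replicate 9 it was 0.15. Its nearest genes were Atxn2l, Ndufa3, a gene of respiratory complex I, and Pofut2 (distances 0.02 to 0.04), with 194 genes within 0.25. Csf1r, the gene of the macrophage growth factor receptor and the next protein-coding gene after Pdgfrb on its chromosome, gave 8111, 5183 and 17559, with replicate 9 highest and replicate 8 lowest as well.

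Of 10 marker genes of pericytes and mural cells, 7 were above background. The share was 55.5% over all named genes and 73.6% over those with 2 or more probe sets, so this count lies near the general share. Among the 7 were Rgs5, a regulator of G protein signalling (4702 ± 894), the receptor gene Notch3 (3807 ± 1279), the proteoglycan gene Cspg4 (1600 ± 192) and the channel subunit gene Abcc9 (1318 ± 324). The summed signal of the list was 16198, 11832 and 13300 in replicates 3, 8 and 9, so that replicate 9, where Pdgfrb was highest, was not the highest for their sum. Of its genes, Kcnj8 (824, 864 and 1090 in replicates 3, 8 and 9) and Des (455, 464 and 707) were highest in replicate 9, and these were singled out after their values were seen. Replicate 9 had the lowest 3′ to 5′ ratio for Actb, whose part in the Pdgfrb value was not tested. With probe sets averaged 4 of the 10 genes were above background, and with the 99th percentile of the reference genes 2 were. Anpep (29.4 ± 13.9), Higd1b (71.9 ± 8.3) and Ndufa4l2 (77.7 ± 41.7) were below background in every sample.

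Kit had signals of 1283, 780 and 927 in replicates 3, 8 and 9 (997 ± 259), which were 4.52, 2.26 and 2.01 times the background of their arrays. Its centred range of 0.73 was wider than that of 69.2% of the genes above background. The second probe set gave 174, 122 and 425, below background on every array, and put replicate 9 highest. The call of Kit, like that of Pdgfd, ended when the probe sets of a gene were averaged (mean log2 level 8.82 against 9.93 for the brightest probe set, and 8.62 against 11.21 for Pdgfd). Both calls also ended with the 99th percentile of the reference genes as background.

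**Figure D3:**
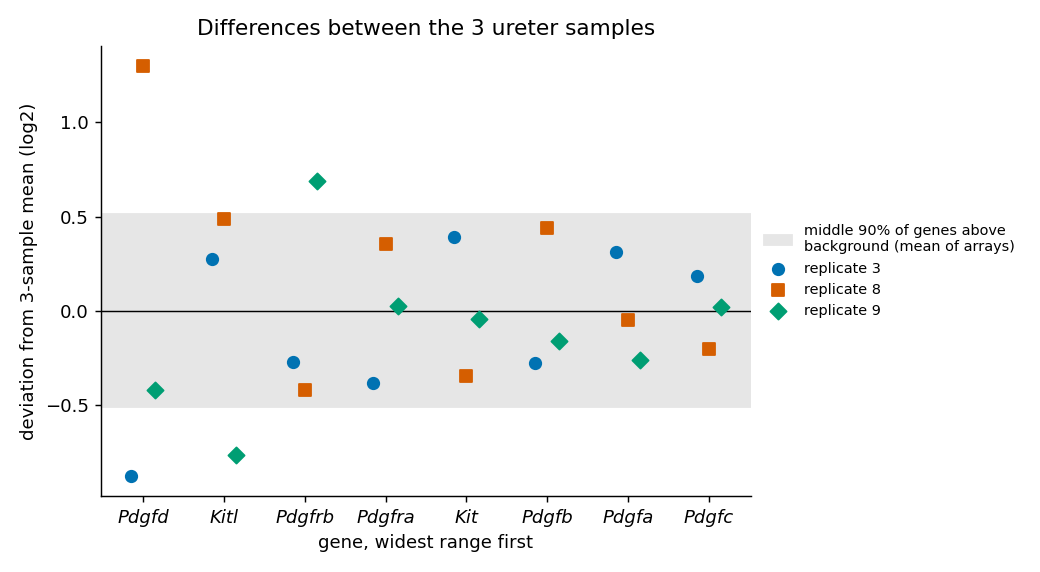
Deviation of each sample from the 3-sample mean (log2, each array's median deviation taken off) for the brightest probe set of each gene, ordered by range, with the middle 90% of genes above background in grey. Replicate 8 stands high for Pdgfd, replicate 9 low for Kitl and high for Pdgfrb, and the other genes lie within the grey band.

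Across the members, 3 of the 7 above background had a centred range of at least 1, namely Pdgfd, Kitl and Pdgfrb, against 14.9% of all genes above background. With probe sets averaged, and counted without regard to the background call, 2 of the 8 members had such a range. They were Pdgfd (1.12), which was then not above background, and Pdgfra (1.02). Kitl (0.22) and Pdgfrb (0.59) then did not, so their wide range rests on the brightest probe set. No sample was high or low throughout: replicate 3 was highest for Pdgfa, Pdgfc and Kit, replicate 8 for Pdgfb, Pdgfd, Kitl and Pdgfra, and replicate 9 for Pdgfrb. The count of 3 rests on single samples, since 1 member kept such a range without replicate 8 and 1 without replicate 9. The median centred range was 0.74 over the 8 members and 0.54 over all genes above background. The lowest centred range after leaving out 1 sample was 0.22 for Pdgfa (without replicate 3) and 0.12 for Pdgfb (without replicate 8). It was 0.14 for Pdgfc (without replicate 9) and 0.34 for Pdgfra (without replicate 3). The median over all genes above background fell as well, to 0.35, 0.34 and 0.29 without replicates 3, 8 and 9.

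In the embryo KIT is also carried by mast cells, melanoblasts, blood progenitors and germ cells, and markers of each were examined beside Kit. Germ cell genes were above background on all arrays for 0 of 7, against 55.5% of all named genes, yet their summed signal was 4994, 620 and 615 in replicates 3, 8 and 9. In replicate 3 Mael, a gene of the piRNA pathway of germ cells, had a signal of 2604, against 108 in replicate 8 and 28.8 in replicate 9. Dppa4, a gene of pluripotent and germ cells, gave 1295, 207 and 219 in replicates 3, 8 and 9, and the pluripotency gene Pou5f1 gave 415, 62.0 and 110. These 3 genes, and Dppa3 (323, 133 and 179), were above background in replicate 3 and in no other sample, while Dazl, Ddx4 and Tdrd1 were below background in all. The 4 genes outside the naming rule were singled out after their values were seen.

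The summed signal of the mast cell genes was highest in the same sample. Above background on all arrays were 2 of 8 of them, against 55.5% of all named genes. Cpa3, a mast cell carboxypeptidase gene, had signals of 3498, 741 and 1244 in replicates 3, 8 and 9, and Hdc, the gene of the histamine-forming enzyme, 1521, 713 and 520. Cma1, a chymase gene, was above background in replicate 3 alone (789, 141 and 304). The summed signal of the 8 mast cell genes was 6213, 1845 and 2331, with Tpsab1, Tpsb2, Ms4a2, Mcpt4 and Fcer1a below background in every sample. Of these, Ms4a2 was highest in replicate 9, and Mcpt4 and Fcer1a in replicate 8. Replicate 3 was thus the sample with the highest summed germ cell and mast cell signal, and with the highest Kit by its brighter probe set. The second Kit probe set put replicate 9 highest. The part of either cell type in the Kit difference was not tested. The summed liver signal (184378, 106466 and 152495 in replicates 3, 8 and 9) and the summed erythroid signal (157540, 76977 and 117956) were highest in replicate 3 as well, and their part was not tested either. So were the sums of the endothelial, pericyte, mesenchymal, skeletal muscle, kidney, blood progenitor and feedback lists. Those of the remaining lists were highest in replicate 8 or 9. Without replicate 3 the centred range of Kit was 0.29, and the median over all genes above background was then 0.35.

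**Figure D4:**
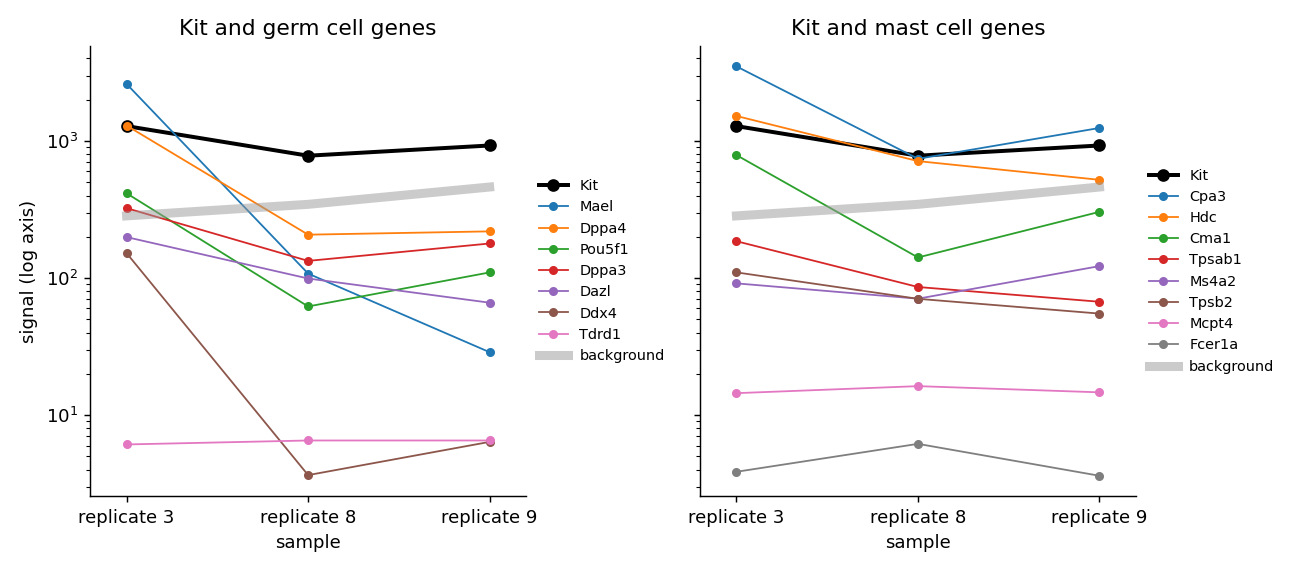
Signal (log axis) of Kit, as a thick black line, beside 7 germ cell genes (left) and 8 mast cell genes (right) in replicates 3, 8 and 9, with the background of each array in grey. Lines join the values of 1 gene and imply no order of the samples. Replicate 3 is the highest sample for Kit (brightest probe set), for 6 of 7 germ cell genes and for 5 of 8 mast cell genes.

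Blood progenitor genes were above background for 8 of 8, including the transcription factor genes Lmo2 (10668 ± 2952), Tal1 (9459 ± 2898) and Gata2 (5093 ± 2817) and the surface antigen gene Cd34 (2632 ± 1113), with a summed signal of 36615, 29811 and 33569 in replicates 3, 8 and 9. With the 99th percentile of the reference genes 5 of the 8 were above background. The main background was exceeded by 55.5% of all named genes and 73.6% of those with 2 or more probe sets. Several of the blood progenitor genes are also expressed in red cell precursors or endothelium. Of 7 melanocyte genes 2 were above background, the endothelin receptor gene Ednrb (11167 ± 777) and Mitf (1280 ± 481), whereas the pigment genes Mlana (19.3 ± 20.5), Tyrp1 (58.6 ± 50.7), Tyr (109 ± 44) and Dct (176 ± 116) were below background in every sample. Of 4 measured of 6 listed genes used as markers of interstitial cells of Cajal, the KIT-positive pacemaker cells of smooth muscle, 2 were above background. They were the chloride channel gene Ano1 (3256, 6224 and 3342 in replicates 3, 8 and 9) and the thrombospondin gene Thbs4 (1094, 436 and 2220). Neither was highest in replicate 3, where Kit was by its brightest probe set. The second Kit probe set, below background on every array, was highest in replicate 9, as Thbs4 was. Cacna1h (371, 255 and 715) and Gpr20 (277, 298 and 468), above background on some arrays only, were highest in replicate 9 too.

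Pdgfra, Kit and the VEGF receptor gene Kdr follow each other among the protein-coding genes of mouse chromosome 5 in assembly GRCm38.p6. Kdr had signals of 1049, 1442 and 2950 in replicates 3, 8 and 9. By the brightest probe sets, each of the 3 neighbours on chromosome 5 was thus highest in a different sample. The second probe set of Kit and 1 of those of Pdgfra were highest in replicate 9, as Kdr was. Sequence before the annotated start is shown for the neighbouring receptors Pdgfra and Kit, for the ligand of KIT, and for Pdgfd as the member that differed most between samples. Each is 250 bases, 5′ to 3′, on the plus strand of RefSeq GRCm38.p6, with TATAAA and GGGCGG (on either strand) in capitals, and Kit is shown for the first of 2 starts that lie a few bases apart.
Pdgfra: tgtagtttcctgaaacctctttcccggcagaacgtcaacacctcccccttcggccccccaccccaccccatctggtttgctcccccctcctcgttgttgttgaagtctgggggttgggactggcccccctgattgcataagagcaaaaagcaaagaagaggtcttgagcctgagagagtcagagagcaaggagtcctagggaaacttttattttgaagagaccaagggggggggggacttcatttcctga
Kit: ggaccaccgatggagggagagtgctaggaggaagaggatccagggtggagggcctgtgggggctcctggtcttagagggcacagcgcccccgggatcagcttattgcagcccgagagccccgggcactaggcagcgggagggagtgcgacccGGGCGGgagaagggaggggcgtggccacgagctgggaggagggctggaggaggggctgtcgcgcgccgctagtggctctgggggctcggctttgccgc
Kitl: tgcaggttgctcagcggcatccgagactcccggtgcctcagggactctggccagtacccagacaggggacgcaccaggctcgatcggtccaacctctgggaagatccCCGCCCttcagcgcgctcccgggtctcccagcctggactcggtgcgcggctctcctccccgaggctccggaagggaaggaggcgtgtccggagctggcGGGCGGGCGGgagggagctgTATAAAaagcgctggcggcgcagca
Pdgfd: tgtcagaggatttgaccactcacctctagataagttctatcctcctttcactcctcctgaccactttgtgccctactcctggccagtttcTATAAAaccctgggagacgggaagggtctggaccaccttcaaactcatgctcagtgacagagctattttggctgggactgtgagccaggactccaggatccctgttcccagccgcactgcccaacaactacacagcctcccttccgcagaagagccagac

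These stretches lie at chr5:75152001-75152250 for Pdgfra, chr5:75574737-75574986 for Kit, chr10:100015571-100015820 for Kitl and chr9:6168236-6168485 for Pdgfd. The letters TATAAA, the core of the TATA box, begin 25 bases before the start of Kitl and 160 bases before that of Pdgfd, and 12.3% of 32536 start regions of this length hold them on either strand. The GC box letters GGGCGG occur before Kit, 98 bases from its start, and before Kitl at 143 (on the minus strand), 45 and 41 bases, the last 2 overlapping, and 32.97% of the regions hold them. CCAAT, held by 33.8% of the regions, was in none of the 4, and none of the 3 motifs was found in the Pdgfra stretch. The GC content was 70.8% for Kit, 69.2% for Kitl, 54.4% for Pdgfra and 53.6% for Pdgfd, against a median of 52.4%. A match describes letters and not a bound site. Of the 8 members, 6 had a start region in the table used.

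Of 12 genes that prepare or bind the ligands, 10 were above background, against 55.5% of all named genes, and 5 were with the 99th percentile of the reference genes. They included the co-receptor gene Nrp1 (9163, 13293 and 23380 in replicates 3, 8 and 9), Sparc, whose protein binds PDGF (12070 ± 2041), the proprotein convertase gene Pcsk5 (5513 ± 953) and Adam17, a sheddase gene (3268 ± 247). Of the activating proteases, Plat, the gene of tissue plasminogen activator, which cuts PDGF-C, had a signal of 3168 ± 874. Plau, the gene of urokinase, which cuts PDGF-D, gave 165, 139 and 500 and was above background in replicate 9 alone. St14, the gene of matriptase, gave 292, 767 and 462, with replicate 8 highest as for Pdgfd, and in replicates 3 and 9 it exceeded the background of 284 and 461 by little. Plat, Plau and St14 were singled out after their values were seen.

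All 26 measured of 32 listed adaptor and effector genes of these receptors were above background, against 55.5% of all named genes and 73.6% of those with 2 or more probe sets. They included the adaptor genes Crk (21001 ± 3339) and Gab1 (13941 ± 1017), the phosphatase gene Ptpn11 (19186 ± 1230) and the kinase gene Map2k1 (11414 ± 1949). The count was 18 of 26 with probe sets averaged and 21 of 26 with the 99th percentile of the reference genes as background. Of 13 feedback regulators 12 were above background, including the EGF receptor inhibitor gene Errfi1 (12886 ± 3340), the Sprouty-related genes Spred1 (7807 ± 2178) and Spred2 (7165 ± 936) and the ERK phosphatase gene Dusp6 (6942 ± 1256). The receptor phosphatase gene Ptprj was below background in every sample (124 ± 56). When probe sets were averaged, 7 of the 13 feedback genes were above background.

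Among 13 measured relatives of the members, 10 were above background, against 55.5% of all named genes and 73.6% of those with 2 or more probe sets. Besides Csf1r (10284 ± 6468) and Kdr (1813 ± 1003), these 10 relatives included the VEGF ligand genes Vegfd (3350 ± 1564) and Vegfc (1902 ± 125). Of the class III receptors related to KIT, Flt3 was below background in every sample (42.5 ± 22.5), as was the CSF1 receptor ligand gene Il34 (83.6 ± 25.5), and so was the VEGF receptor gene Flt1 (252 ± 46). With the 99th percentile of the reference genes as background, 2 of the 13 relatives remained above it.

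**Figure D5:**
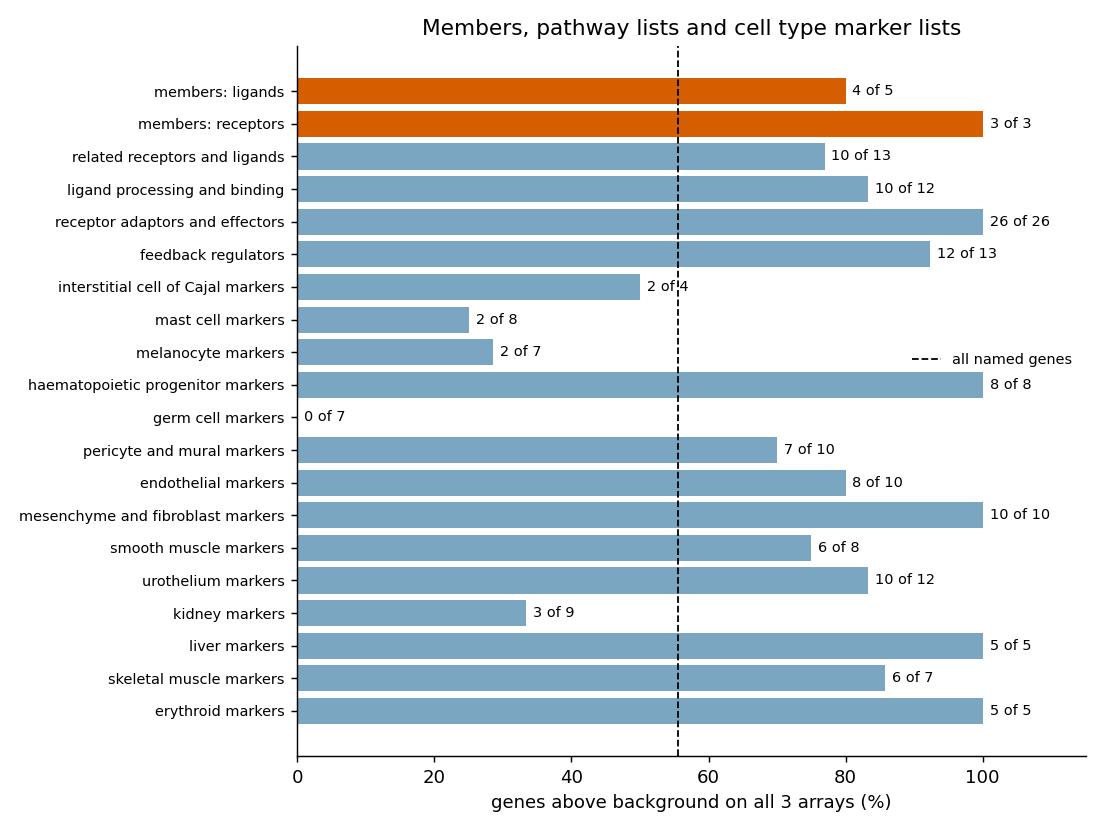
Percentage of measured genes above background on all 3 arrays (horizontal axis) for the ligand and receptor members (orange) and 18 gene lists (blue), with counts beside the bars and a dashed line at 55.5% for all named genes. The adaptor list stands at 26 of 26, and the interstitial cell of Cajal, mast cell, melanocyte, germ cell and kidney lists lie below the line.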

How the data were processed

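Linear signal intensities, 1 per probe set and array (45101 probe sets, 3 arrays), were used as deposited. Per the submitters' processing notes they come from GCOS, the array maker's software, with version, settings and detection calls not given in the sources used here. The 2% trimmed mean was 1500 on each array, so the authors' intensities had been scaled to a common mean, and a level is relative to its array. The number of arrays limits the precision.

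Genes were assigned from the platform annotation (34958 with 1 symbol, 932 with several, 9211 unnamed here), and 34754 matched a GRCm38.p6 gene table by Entrez ID, which changed no symbol. Values were analysed as log2(signal + 1) in Python 3.11.15 with pandas 2.3.3. Background was the 95th percentile of a reference list of 55 genes, 49 of them measured, and 1 (Lor, a keratinocyte gene) above it. No test between groups was possible.

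Named genes are all members, the brightest 4 genes of each list among those above background, up to 4 of those below background on every array, chromosomal neighbours among the relatives, and the 3 genes nearest to each member with a log2 range of at least 1. Others are said to have been singled out, apart from genes of the fixed marker lists given with their list. The members and lists were chosen with earlier results of these data known. Alternatives were quantile normalization, pseudocounts of 16 and 64, probe set choice, the percentile, the number of arrays required, leaving out each replicate, no centring and no filter. 1 alternative, the reference list without Lor, was added after seeing the data.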

Additional observations from a re-analysis of the deposited data

How the results depend on the processing

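The count of 7 members above background held under every alternative run except averaging over probe sets and the 99th percentile of the reference genes, which each left 5, without Pdgfd and Kit. Quantile normalization and the pseudocounts keep the order of values within an array, so they could hardly move a call. The 90th percentile, a call on at least 2 arrays and the reference list without Lor can only add calls. Without each replicate in turn the count was 7, but leaving out an array cannot end a call while the same probe set is used. Pdgfb exceeded background on 1 array alone, so with the same probe sets this count could not change. The 99th percentile, which is set by Lor, also lowered the genes of the 18 lists above background to 86, against 132 of 174, and all named genes to 6226, against 10103. The median of the members' mean log2 levels was 11.71, and 9.85 with probe sets averaged, which takes in dim probe sets by construction. The number of members with a centred log2 range of at least 1 lay between 1 and 3 when 1 replicate was left out, against 3 with all samples. It was 2 with probe sets averaged, counted without regard to the background call, where Pdgfra took the place of Kitl and Pdgfrb. Over all results, 498 of 544 recomputed values stayed within the replicate spread or within 1.5 times the count. Many of these values are calls and counts under settings that could hardly change them, and 5 members against 7 fell within that limit. The total is therefore no measure of how stable the calls are. A second reference list was not run, because no other list was at hand. No paired analysis was possible because the samples form 1 group. The number of arrays and the closeness of Pdgfb and Kit to background limit their values.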
